A study of Mus musculus with 6 samples.

Results

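Splicing factors and hnRNP proteins were taken as the genes of the authors' deposited table whose symbols name the SR proteins (Srsf), the hnRNP proteins (Hnrnp), proteins of the small nuclear ribonucleoproteins (Snrp), the SF3a and SF3b subunits (Sf3a, Sf3b), U2AF (U2af), the pre-mRNA processing factors (Prpf) and the Rbfox, Nova and Celf regulators. This gave 79 of 18732 genes, and all 79 were among the 17279 genes that the table gives an adjusted p. They were set in 2 classes, 37 genes of the core spliceosome (Snrp, Sf3a, Sf3b, U2af, Prpf) and 42 splicing regulators (Srsf, Hnrnp, Rbfox, Nova, Celf). The RNA came from mouse striatum and was purified with antibodies against GFP-L10a, a ribosomal protein fused to GFP that is made only in cells with Cre, a method called translating ribosome affinity purification. Cre was tied to Oprm1, the gene of the mu opioid receptor, so the tagged cells are those in which that locus is or was active. All mice of both groups carried the Oprm1 Cre allele and RosaLSL-GFP-L10a, written as Oprm1Cre/+;RosaLSL-GFP-L10a on the samples, while the series description writes Oprm1Cre/Cre. Morphine was set against saline, with 3 libraries listed in each group. Whether all of them entered the authors' fit is not given in the sources used here. Morphine mice had 2 subcutaneous injections a day over 5 days, in steps of 20, 40, 60 and 100 mg/kg. A library holds striatum of both hemispheres from 2 pooled brains, collected 24 h past the final dose, and neither age nor sex is given in the sources used here.

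Splicing removes introns from pre-mRNA. The spliceosome is built from small nuclear ribonucleoproteins, in which a ring of Sm proteins sits on each of the U1, U2, U4 and U5 RNAs, and it recognizes the ends of the intron with the help of U2AF, SF3a and SF3b. SR proteins and hnRNP proteins bind exons and introns and shift which sites are used, and Rbfox, Nova and Celf proteins do so for many exons specific to neurons. Many SR protein genes also limit their own mRNA through exons that lead to nonsense-mediated decay.

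Of the 79 genes, 1 fell after morphine and 0 rose at the authors' adjusted p threshold of 0.05 (DESeq2 Wald test, Benjamini-Hochberg adjustment). Over all tested genes the table called 13.8%, with 11.8% higher and 2.01% lower. At an unadjusted p under 0.05, 9 members were lower and 0 higher, against 5.97% of all tested genes lower and 16.2% higher. Among coding genes without a predicted signal peptide or membrane segment, the closest class to the members, 4.22% were called by the adjusted p, and 5.82% were lower and 5.05% higher at the unadjusted threshold. The gene that fell was Snrpf, which encodes the Sm protein F, at a log2 fold change of -0.53 in the authors' deposited table (SE 0.18, 0.694-fold, adjusted p = 0.0223). With the median of those coding genes, -0.06, subtracted from every gene, its adjusted p was 0.0523 by the same Wald test. The RNA was pulled down with tagged ribosomes from many cells, and the samples listed hold no RNA from before the pull-down. Fewer cells of a type, less RNA per cell, less of it on ribosomes and a changed background cannot be told apart. The table gives 1 estimate per gene with its SE and no values per library, so the spread between libraries is seen only through the SE. The numerator of the fold change is not named in it. A positive value is read here as higher after morphine, since the sheet that holds only positive values is labelled as increases, and all directions given below depend on that reading.

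The intervals were narrow enough to bound most members. For 70 of the 79 genes (88.6%) the 95% Wald interval, the estimate plus or minus 1.96 SE, lay wholly within a 1.5-fold change in either direction, against 44.9% of all tested genes. The share was 68.0% for coding genes with no predicted signal peptide or membrane segment and 79.1% for those of them with a mean of at least 100. For 78 it lay within a 2-fold change. All 42 regulators had an interval within 1.5-fold, as did 28 of the 37 core genes. The members' median SE was 0.14 on the log2 scale, against 0.18 over all tested genes. The exception beyond 2-fold was Snrpert, annotated as a processed pseudogene copied from Snrpe, with a mean normalized count of 47.2 and an SE of 0.49 in the authors' deposited table. The other 78 members are protein-coding and had means of 683 to 57341 in the authors' deposited table.

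**Figure D1:**
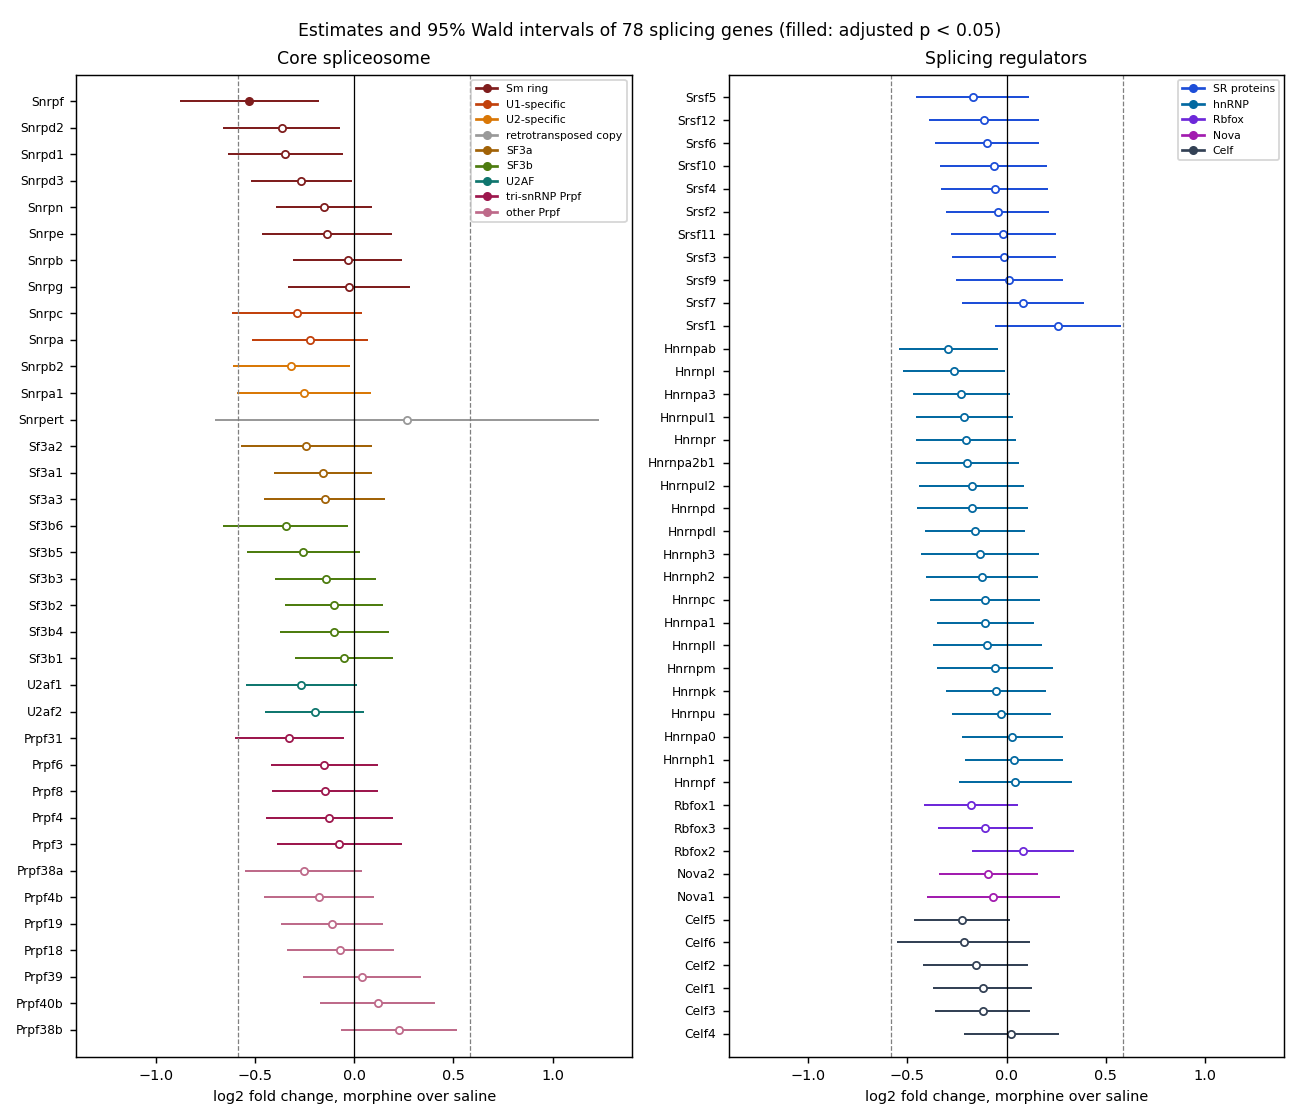
Each point is the authors' log2 fold change of a gene, morphine over saline, with its 95% Wald interval as a line, for 36 core spliceosome genes (left) and 42 splicing regulators (right), coloured by role. Dashed lines mark a 1.5-fold change, and the filled point, Snrpf, is the member past adjusted p 0.05.

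The estimates lay mostly a little below 0. They were negative for 67 of the 79 genes, or 84.8%, with a median log2 fold change of -0.12 (0.918-fold), against 51.7% negative and a median of -0.01 over all tested genes. Coding genes with a predicted signal peptide or membrane segment had a median of 0.58 in this table (3602 genes), and none of the 78 coding members has such a segment. Of the 9804 tested coding genes without one, 62.5% had negative estimates, the median was -0.06, and 2.82% were called higher and 1.41% lower. With that median of -0.06 subtracted, 57 of the 79 members were below 0. For the core spliceosome the median was -0.15 with 33 of 37 negative, and for the regulators -0.11 with 34 of 42 negative. The medians of the classes lay 0.04 apart on the log2 scale, and this difference was not tested because the table holds no values per library.

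**Figure D2:**
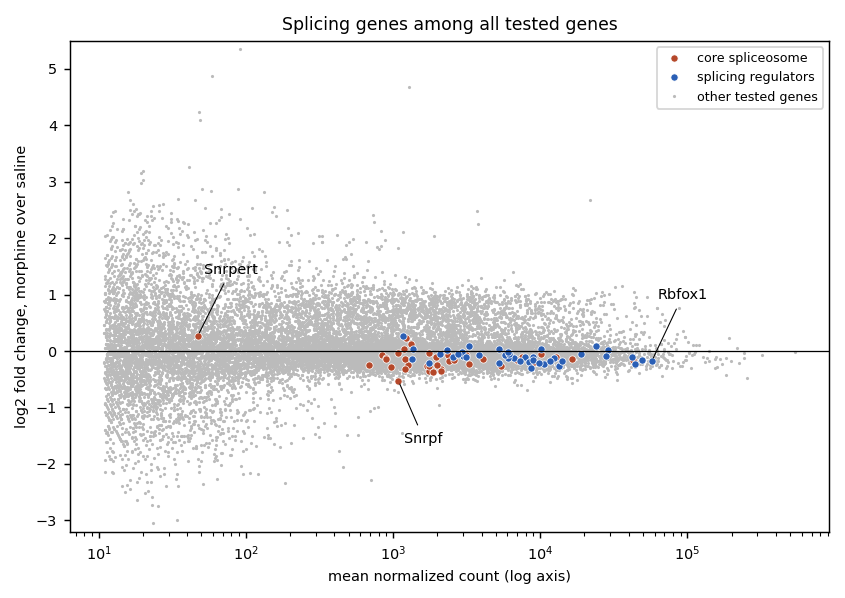
The authors' log2 fold change, morphine over saline, is plotted against the mean normalized count on a log axis for 37 core spliceosome genes, 42 splicing regulators and the other tested genes. The members lie mostly just below 0, from -0.53 for Snrpf to 0.26 for Snrpert, while tested genes, with means down to 10.9, run from -3.05 to 5.36. The quartiles were -0.21 and -0.06 for members. They were -0.17 and 0.05 for coding genes with no predicted segment and a mean of at least 100.

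Promoters are shown for the gene that fell, for its Sm partner next to the threshold, for Sf3b6, the member with the smallest p whose single listed promoter holds an ETS core, and for Srsf1, the coding member with the highest estimate. Each runs 5′ to 3′ on the gene's strand over 300 bases, from 250 before to 50 after the annotated start, from RefSeq on GRCm38.p6. The intervals are chr10:93589609-93589908 (minus strand) for Snrpf, chr7:19149588-19149887 (plus) for Snrpd2, chr12:4817358-4817657 (plus) for Sf3b6 and chr11:88047123-88047422 (plus) for Srsf1. Capitals mark a match to a searched motif on either strand.
Snrpf: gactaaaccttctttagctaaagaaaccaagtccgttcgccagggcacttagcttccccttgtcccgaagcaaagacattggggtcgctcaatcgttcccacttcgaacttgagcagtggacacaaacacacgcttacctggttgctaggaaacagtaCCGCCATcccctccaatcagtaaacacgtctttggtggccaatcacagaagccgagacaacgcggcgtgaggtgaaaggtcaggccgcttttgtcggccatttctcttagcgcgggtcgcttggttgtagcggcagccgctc
Snrpd2: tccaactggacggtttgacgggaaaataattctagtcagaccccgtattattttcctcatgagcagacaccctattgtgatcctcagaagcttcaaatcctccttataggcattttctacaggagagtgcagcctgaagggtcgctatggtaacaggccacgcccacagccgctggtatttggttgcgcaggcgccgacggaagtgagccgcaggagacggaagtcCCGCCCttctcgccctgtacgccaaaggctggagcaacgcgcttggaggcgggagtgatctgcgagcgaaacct
Sf3b6: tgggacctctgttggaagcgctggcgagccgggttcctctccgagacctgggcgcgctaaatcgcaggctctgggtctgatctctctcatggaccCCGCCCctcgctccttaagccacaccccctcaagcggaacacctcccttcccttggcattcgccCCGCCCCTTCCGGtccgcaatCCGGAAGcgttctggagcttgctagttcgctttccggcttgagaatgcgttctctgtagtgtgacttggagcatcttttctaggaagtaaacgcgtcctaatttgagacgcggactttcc
Srsf1: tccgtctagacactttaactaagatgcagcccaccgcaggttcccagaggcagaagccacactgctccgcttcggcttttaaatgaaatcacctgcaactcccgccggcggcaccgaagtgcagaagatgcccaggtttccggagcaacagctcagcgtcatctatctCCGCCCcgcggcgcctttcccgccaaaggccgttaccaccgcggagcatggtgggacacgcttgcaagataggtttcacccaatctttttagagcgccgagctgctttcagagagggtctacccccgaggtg

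The motifs searched on both strands were the GC box GGGCGG, the ETS core CCGGAAG, the NRF1 core GCATGCG, the YY1 core ATGGCGG and the TATA box TATAAA. Of the members, 67 had 1 or more promoters in the RefSeq table, 104 in all. The ETS core was in 25 of those 104 (24.0%), 15 of 38 core and 10 of 66 regulator promoters, against 8.86% of 32851 promoters of all genes. GC boxes were in 62 (59.6%), against 35.7% of all promoters. TATA boxes were in 10 (9.62%), against 13.6% of all. The NRF1 core was in 9 (8.65%), against 3.58% of all, and the YY1 core in 15 (14.4%), against 4.05% of all. The median GC content was 60.0% in the members' promoters, against 52.7% in all. The Snrpf window held a YY1 core, Snrpd2 and Srsf1 held a GC box each, and Sf3b6 held 2 ETS cores and 2 GC boxes, with 1 pair side by side and no match overlapping another. These matches describe the windows and were not set against the fold changes. The promoters of all genes were not limited to genes measured here, and shares over measured coding genes were not computed.

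The Sm proteins form the ring common to U1, U2, U4 and U5. All 8 genes of the ring (Snrpb, Snrpn, Snrpd1, Snrpd2, Snrpd3, Snrpe, Snrpf and Snrpg) had negative estimates, with a median of -0.21, and 4 of them had an unadjusted p under 0.05. With -0.06 subtracted, 6 of the 8 lay below 0. Of coding genes with no predicted segment, 62.5% had negative estimates and 5.82% were lower at that unadjusted threshold. The ring genes had a median coding length of 355.5 bases. For coding genes with no predicted segment and at most 600 coding bases, 76.6% of estimates were negative, with a median of -0.15. Snrpf had the lowest estimate of all 79 members, with a 95% interval of -0.87 to -0.18 from the values of the authors' deposited table. It is annotated at 93583029 to 93589706 on chromosome 10 of GRCm38 (GENCODE M21), minus strand, and 65.9% of its 861 exon bases lie under exons of Ccdc38 on the opposite strand. Ccdc38 itself had a mean normalized count of 6.40 in the authors' deposited table, against 1089 for Snrpf, and was given no adjusted p. Whether the authors' counting used strand is not given in the sources used here, so reads of the pair may not be separated.

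The D proteins pair in the ring with each other or with B, and the genes Snrpd2 and Snrpd1 stood next to the threshold. Snrpd2 had an estimate of -0.36 (SE 0.15, DESeq2 adjusted p = 0.0862) and Snrpd1 of -0.35 (SE 0.14, DESeq2 adjusted p = 0.101) by the authors' deposited table, DESeq2 Wald tests with Benjamini-Hochberg adjustment. Snrpd3 was at -0.27 (SE 0.13) in the same authors' deposited table. Snrpf lies just inside the threshold and Snrpd2 just outside, and their intervals overlap. Snrpe was at -0.14 (SE 0.16), and Snrpb (-0.03, SE 0.14) and Snrpg (-0.03, SE 0.15) were close to 0 in the authors' deposited table. The ring holds these proteins in equal number, with SmN in place of SmB. The estimates of their genes here ran from -0.53 to -0.03, and differences between these genes were not tested.

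Snrpn encodes SmN, the form of SmB/B′ found mainly in neurons, and is expressed from the paternal allele. Per kilobase of exon, it had the highest level of all 79 members, a mean normalized count of 19820 per kb against 892 for its paralogue Snrpb, computed from the authors' deposited table. The estimate for Snrpn was -0.15 (SE 0.12, DESeq2 adjusted p = 0.537) by the authors' deposited table, with an interval of -0.39 to 0.08. Of its exon bases, 27.3% are shared on the same strand with the gene model Gm38393, whose mean in the authors' deposited table was 1951.

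The members that encode proteins particular to U1 and U2 had estimates of a similar size. Snrpa and Snrpc encode the A and C proteins of U1, the particle that pairs with the start of the intron, and stood at -0.22 (SE 0.15) and -0.29 (SE 0.16) in the authors' deposited table. Snrpb2 and Snrpa1, the B″ and A′ proteins of U2, the particle that pairs with the branch site, were at -0.32 (SE 0.15, DESeq2 adjusted p = 0.162) and -0.25 (SE 0.17) in the authors' deposited table with the same DESeq2 test. None of these 4 passed, and none had an estimate above 0. Their intervals reach from -0.61 at the lowest to 0.08 at the highest. Snrnp70, a further gene of a U1 protein that lies outside the naming rule, was at -0.03 (SE 0.13) in the authors' deposited table.

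SF3a and SF3b hold U2 on the branch site. All 9 of their genes among the members had negative estimates, 8 after -0.06 was subtracted. The median was -0.16 for the 3 SF3a genes and -0.12 for the 6 SF3b genes. Phf5a, a further SF3b gene that lies outside the naming rule, was at -0.22 (SE 0.15) in the authors' deposited table. Among the 9, the small SF3b subunits were lowest, with Sf3b6 at -0.35 (SE 0.16, DESeq2 adjusted p = 0.149) and Sf3b5 at -0.26 (SE 0.14) in the authors' deposited table, DESeq2 Wald tests. Sf3b1, the scaffold of the complex and a gene often mutated in blood cancers, was at -0.05 (SE 0.12), the value nearest to 0 among the 9, in the authors' deposited table. Sf3b2 (-0.10, SE 0.12), Sf3b4 (-0.10, SE 0.14), Sf3b3 (-0.14, SE 0.13), Sf3a3 (-0.15, SE 0.15), Sf3a1 (-0.16, SE 0.12) and Sf3a2 (-0.24, SE 0.17) filled the range in the authors' deposited table. For U2AF, which reads the pyrimidine tract and the AG at the intron's end, U2af1 stood at -0.27 (SE 0.14) and U2af2 at -0.20 (SE 0.12) in the authors' deposited table.

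The Prpf genes went both ways without a call. The 5 that encode proteins of U5 or of the U4/U6.U5 tri-snRNP, Prpf3, Prpf4, Prpf6, Prpf8 and Prpf31, had negative estimates with a median of -0.15. Prpf31, whose protein binds U4 and which is a retinitis pigmentosa gene in humans, was lowest at -0.33 (SE 0.14, adjusted p = 0.109, DESeq2), and Prpf8, the centre of the active site, was at -0.15 (SE 0.13) in the authors' deposited table. Prpf6 (-0.15, SE 0.14), Prpf4 (-0.12, SE 0.16) and Prpf3 (-0.07, SE 0.16) made up the rest in the authors' deposited table. Among the other 8 the estimates ran from -0.25 for Prpf38a to 0.23 for Prpf38b (SE 0.15 each) in the authors' deposited table. Prpf38b, Prpf40b (0.12, SE 0.15) and Prpf39 (0.04, SE 0.15) were the coding core genes with estimates above 0 in the authors' deposited table. Prpf18, a second-step factor, was at -0.07 (SE 0.14), the ubiquitin ligase gene Prpf19 at -0.11 (SE 0.13) and the kinase gene Prpf4b at -0.18 (SE 0.14) in the authors' deposited table.

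The 11 SR protein genes had the estimates nearest to 0 of the larger families, with a median of -0.05 that turned to 0.02 when -0.06 was subtracted. Of them 8 were negative and 3 positive, and 0 passed at an unadjusted p under 0.05 or after DESeq2's adjustment. Srsf1, the founding SR protein, had the highest estimate of the coding members at 0.26 (SE 0.16, adjusted p = 0.363, DESeq2), with an interval of -0.05 to 0.57, and Srsf7 was at 0.08 (SE 0.15) in the authors' deposited table. The lowest were Srsf5 at -0.17 (SE 0.14) and Srsf12 at -0.11 (SE 0.14) in the authors' deposited table. Srsf2, Srsf3 and Srsf9 were within 0.05 of 0 in the authors' deposited table, at -0.05 (SE 0.13), -0.01 (SE 0.13) and 0.01 (SE 0.13). Srsf4, Srsf6, Srsf10 and Srsf11 lay between -0.10 and -0.02, with SEs of 0.13 or 0.14, in the authors' deposited table. Of the exon bases of Srsf4, 43.0% lie under exons of Gm12992 on the opposite strand.

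SR proteins are named for their arginine and serine, so a high share of pairs of these residues follows from the choice by name. Arginine-serine or serine-arginine pairs made up a median of 22.6% of the residues of the SR proteins, from 6.76% in Srsf9 to 31.1% in Srsf7, against 1.54% over tested coding genes. Outside the SR proteins, Prpf38b (13.8%), Prpf38a (11.2%), Prpf4b (9.73%) and U2af1 (8.79%) had the highest shares. At least 1 transcript annotated for nonsense-mediated decay was present for 9 of the 11 SR genes (81.8%) and 36 of all 79 members (45.6%), against 27.3% of tested coding genes. The median log2 fold change of the 36 coding members with such a transcript was -0.10 and that of the 42 without -0.14. Among coding genes with no predicted segment it was -0.06 with and -0.06 without. The table counts whole genes, so the use of these transcripts was not measured.

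The hnRNP genes were abundant and lay slightly below 0. Their 20 estimates had a median of -0.13, 17 were negative, and 0 passed DESeq2's adjusted threshold, with 2 at an unadjusted p under 0.05. Those were Hnrnpab, which binds and carries mRNA (-0.29, SE 0.12, DESeq2 adjusted p = 0.109), and Hnrnpl, which binds CA repeats (-0.26, SE 0.13, DESeq2 adjusted p = 0.195), in the authors' deposited table. Of the exon bases of Hnrnpab, 29.1% lie under exons of Phykpl on the opposite strand, whose mean in the authors' deposited table was 83.0. The highest estimates were those of Hnrnpf and Hnrnph1, which bind runs of G, both at 0.04 (SE 0.14 and 0.12), and Hnrnpa0 at 0.03 (SE 0.13) in the authors' deposited table.

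The A/B hnRNPs bind UAG-type sites and often silence exons, and Hnrnpa0, given above, belongs with them. Hnrnpa1 was at -0.11 (SE 0.12), Hnrnpa2b1 at -0.20 (SE 0.13) and Hnrnpa3 at -0.23 (SE 0.12) in the authors' deposited table. Their proteins are rich in glycine, 24.4% to 27.5% of residues with Hnrnpa0 included, against a median of 6.31% over tested coding genes. The poly-C binding Hnrnpk (-0.05, SE 0.13), the poly-U binding Hnrnpc (-0.11, SE 0.14) and the scaffold gene Hnrnpu (-0.03, SE 0.13) also had negative estimates in the authors' deposited table. Hnrnpd and Hnrnpdl, which bind AU-rich RNA, stood at -0.17 (SE 0.14) and -0.16 (SE 0.13) in the authors' deposited table. Hnrnpr (-0.21, SE 0.13), Hnrnpul1 (-0.21, SE 0.12) and Hnrnpul2 (-0.17, SE 0.13) followed in the authors' deposited table. The remaining estimates in the authors' deposited table were those of Hnrnph2 (-0.12, SE 0.14), Hnrnph3 (-0.13, SE 0.15), Hnrnpll (-0.10, SE 0.14) and Hnrnpm (-0.06, SE 0.15).

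None of the 11 Rbfox, Nova and Celf genes passed DESeq2's adjusted threshold or an unadjusted p under 0.05, and their levels ran from 1756 for Celf6 to 57341 for Rbfox1 as mean normalized counts in the authors' deposited table. By mean normalized count, the highest of all members were Rbfox1 (57341), Celf2 (48975), Celf5 (43935), Snrpn (42792) and Rbfox3 (41879) in the authors' deposited table, between percentiles 99.0 and 99.4 of tested genes. Per kilobase of exon the order was Snrpn, then Rbfox1 with 13032, Rbfox3 (the NeuN antigen) with 7198 and Celf5 with 6589 normalized counts per kb, computed from the authors' deposited table. Celf2, whose annotated exons cover 25884 bases, had 1892 per kb. The lowest levels per kb were those of Prpf39 (99.7), Snrpc (148) and Prpf3 (149), computed from the authors' deposited table.

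Rbfox proteins bind GCAUG beside alternative exons. Rbfox1 had an estimate of -0.18 (SE 0.12), Rbfox3 of -0.11 (SE 0.12) and Rbfox2 of 0.08 (SE 0.13) in the authors' deposited table. Nova proteins bind YCAY clusters, and Nova1 was at -0.07 (SE 0.17) and Nova2 at -0.09 (SE 0.12) in the authors' deposited table. Celf proteins bind GU-rich RNA, and the lowest of the 6 were Celf5 (-0.22, SE 0.12, adjusted p = 0.269, DESeq2) and Celf6 (-0.22, SE 0.17) in the authors' deposited table. Celf2 (-0.16, SE 0.13), Celf1 and Celf3 (-0.12, SE 0.12 each) and Celf4 (0.02, SE 0.12) followed in the authors' deposited table. The intervals of these 11 genes ran from -0.55 at the lowest to 0.33 at the highest, which leaves a change of 1.5-fold outside each of them.

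Within the core spliceosome, median estimates were lower in the classes of shorter coding sequence, with exceptions among single genes. The shortest, Snrpg (228 coding bases), was at -0.03 (SE 0.15) and Prpf31 (1497 bases) at -0.33 (SE 0.14) in the authors' deposited table. The 9 core genes with at most 600 coding bases had a median log2 fold change of -0.29 and the 8 core genes with 600 to 1200 bases one of -0.24, against -0.12 for the 11 with 1200 to 2400 and -0.12 for the 8 above 2400. Across the 36 coding core genes Spearman's rho of the fold change with coding length was 0.52, and across the 42 regulators it was -0.23. Both are correlations across genes of the same fit, which are not independent replicates. Coding genes with no predicted segment, members among them, showed a trend of the same direction, with medians of -0.15, -0.08, -0.05 and -0.01 over the same length classes (rho 0.22, 9804 genes). Srsf3, the only regulator with at most 600 coding bases, was at -0.01 (SE 0.13) in the authors' deposited table, and the 18 regulators with 600 to 1200 bases had a median of -0.11. The part of length in the lower estimates of the Sm genes was not tested.

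**Figure D3:**
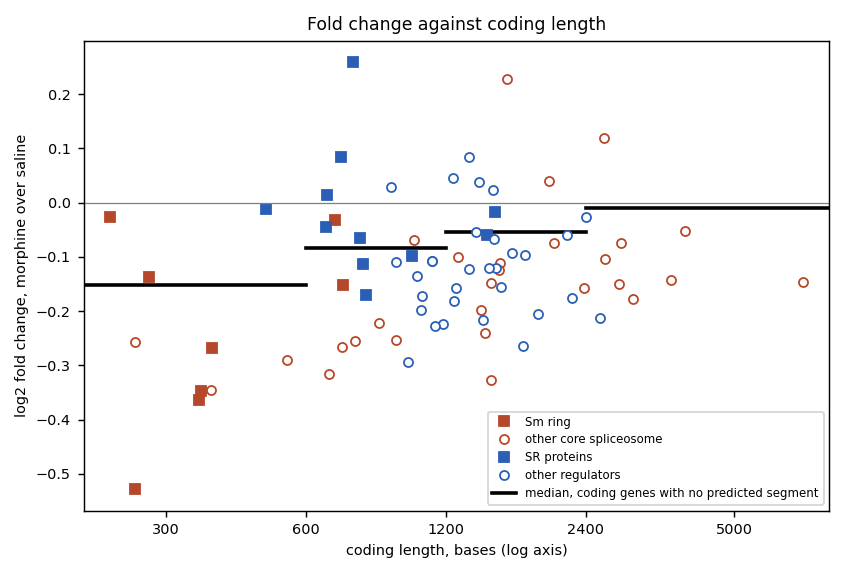
The authors' log2 fold change, morphine over saline, is plotted against coding length on a log axis for 78 coding members, with squares for the Sm ring and the SR proteins and open circles for the others. Black bars give the median of all coding genes with no predicted segment in 4 length classes, rising from -0.15 to -0.01, and most short core genes lie below them.

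Pseudogenes derived from the members were measured beside them. Among the pseudogenes in the table, 28 matched a transcript of a member best and with at least 95% identity, among them Snrpert with 98.9% identity to Snrpe. The 17 members with the other 27 copies had a median log2 fold change of -0.15, and those copies one of -1.08. All 27 copies had negative estimates, and 26 lay below their member. Of 21 copies with an adjusted p, 4 were called lower and 0 higher. Of 791 tested pseudogenes with such a match to any coding gene, 159 were lower and 1 higher, so the same direction was seen for copies of other genes. Over all 1009 pseudogenes with such a match, tested or not, the median was -0.86, so low estimates were not particular to copies of the members.

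The 4 called copies in the authors' deposited table were Gm6159, a copy of Hnrnpr (-1.33, SE 0.42), Gm7935 of Sf3b4 (-1.30, SE 0.44), Gm18959 of U2af1 (-1.20, SE 0.41) and Gm5802 of Snrpn (-1.08, SE 0.37). Most copies had few counts, with a median mean of 19.4 and a median of 0.340% of the member's mean. The exceptions in level were Gm7964, a copy of Hnrnpk with a mean of 991, and Gm8186, a copy of Snrpg with 141 or 13.0% of its member's mean, in the authors' deposited table. Reads of near-identical sequence can be placed on either copy or dropped, and how the authors' counting treated them is not given in the sources used here, so the values of these members and copies are uncertain to that extent. Snrpf had no such copy.

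**Figure D4:**
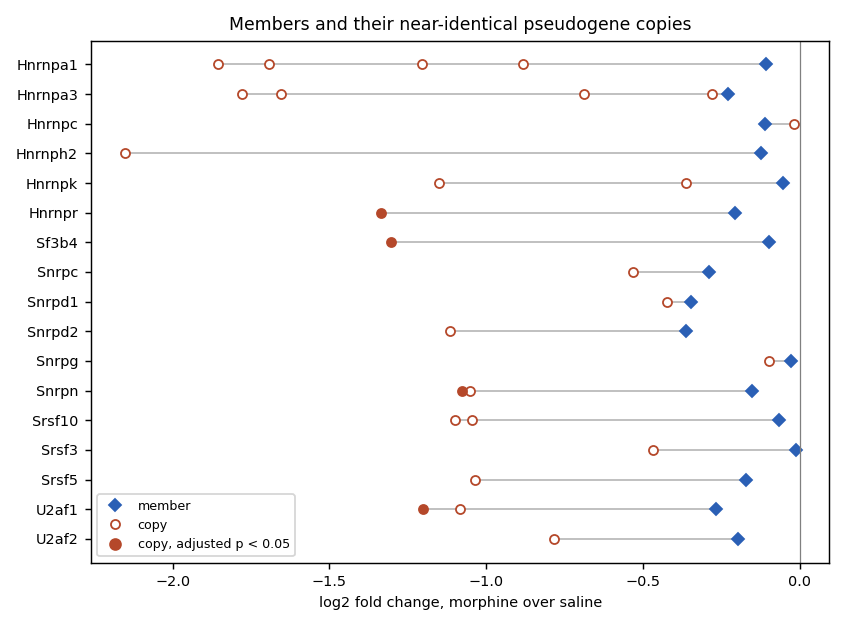
Diamonds give the authors' log2 fold change, morphine over saline, of 17 members and circles those of their 27 pseudogene copies with at least 95% identity, filled where the adjusted p is below 0.05. All but a copy of Hnrnpc lie left of their member.

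Other genes of the pathway, outside the naming rule, were set beside the members. Of 22 further snRNP proteins, which include the LSm ring of U6, 0 passed DESeq2's adjusted threshold and 3 had an unadjusted p under 0.05 and a negative estimate, with a list median of -0.15. The smallest p values there belonged to Lsm5 (-0.68, SE 0.27, DESeq2 adjusted p = 0.0774) and Lsm3 (-0.46, SE 0.19, DESeq2 adjusted p = 0.0884), small ring proteins like the Sm proteins, in the authors' deposited table. Of 40 proteins that act later or with U2, 3 fell and 0 rose, against 2.01% of all tested genes and 1.41% of coding genes with no predicted segment called lower, and the list's median was -0.15. In the authors' deposited table these were Cwc15, a component of the complex around Prpf19 (-0.49, SE 0.13, DESeq2 adjusted p = 0.0027), Ddx46, the helicase known in yeast as Prp5 (-0.38, SE 0.14, DESeq2 adjusted p = 0.0418), and Rbm17, a factor of the intron's end (-0.38, SE 0.14, DESeq2 adjusted p = 0.048), all DESeq2 Wald tests. Of 22 exon junction, export and decay factors 0 passed DESeq2's threshold and 2 had an unadjusted p under 0.05, with a median of -0.16 and Rbm8a (-0.29, SE 0.13) and Thoc3 (-0.27, SE 0.13) lowest in p in the authors' deposited table.

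Other regulators held calls in both directions. Of 51 measured regulators outside the rule 2 rose and 3 fell, with a median of -0.08. Among all tested genes 11.8% were called higher and 2.01% lower, and among coding genes with no predicted segment 2.82% higher and 1.41% lower. The genes of the cold-inducible RNA binding proteins, Rbm3 (-0.50, SE 0.15, DESeq2 adjusted p = 0.00838) and Cirbp (-0.43, SE 0.14, DESeq2 adjusted p = 0.0156), both fell in the authors' deposited table (DESeq2). Pcbp3, a poly-C binding protein gene, also fell (-0.39, SE 0.13, adjusted p = 0.0192, DESeq2) in the authors' deposited table. Qk, the quaking gene with a known role in oligodendrocytes and other glia, rose by 0.43 (SE 0.13, DESeq2 adjusted p = 0.0105), and Rbm47, with a mean of only 34.7, rose by 2.69 (SE 0.61) in the authors' deposited table by the same DESeq2 test. The SR-like proteins and SR kinases, 15 genes with 14 tested, gave 0 calls by DESeq2, with 1 higher and 1 lower at an unadjusted p under 0.05, and a median of 0.01. The 2 smallest p values there belonged to Clk1 and Clk3, kinases of SR proteins. Clk3 was at -0.31 (SE 0.14, DESeq2 adjusted p = 0.128) by the authors' deposited table. Clk1 was at 0.51 (SE 0.21, DESeq2 adjusted p = 0.0936) by that same source, the authors' deposited table.

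**Figure D5:**
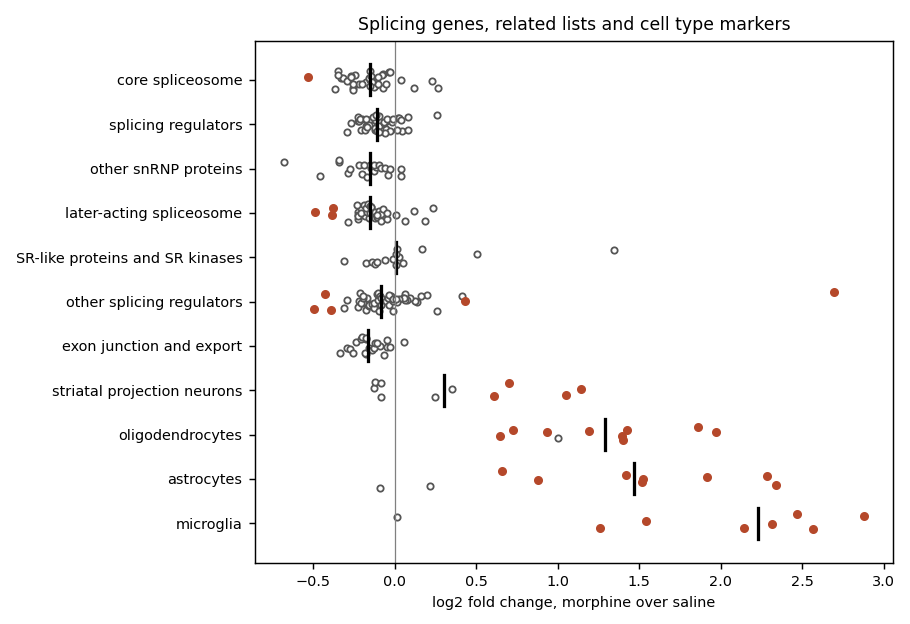
Each point is the authors' log2 fold change, morphine over saline, of a gene of the named list, filled where the adjusted p is below 0.05, with the list's median as a bar. The splicing lists have medians from -0.16 to 0.01, the striatal projection neuron markers 0.30 and the glial lists 1.29 to 2.23.

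The labelled tissue and cell type were checked on markers. All 10 markers of striatal projection neurons were measured, with means of 5037 to 183436 in the authors' deposited table, and 4 rose and 0 fell. Oprm1 itself had a mean of 658 and an estimate of 0.29 (SE 0.18, adjusted p = 0.350, DESeq2) in the authors' deposited table. Markers of glia were measured too and were higher after morphine, 9 of 10 for oligodendrocytes, 8 of 10 for astrocytes and 7 of 8 for microglia, with median log2 fold changes of 1.29, 1.47 and 2.23. The table gives no level per group, so the sums of these markers in morphine and saline libraries are not known, and their part in the estimates of Qk, Rbm47 and the members was not tested.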

How the data were processed

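RNA bound to GFP-L10a was sequenced from 3 morphine and 3 saline libraries. The files hold the authors' comparison as a sheet of 18732 genes and sheets of its 2383 calls at adjusted p 0.05, of its 2036 positive calls and of its 347 negative calls, with equal values. The tools that the submitters' processing notes list are STAR 2.6.1d and DESeq2 1.20.0, the builds GRCm38 and mm10, without their roles. For the counter, annotation, model and fitted libraries the sources used here give nothing, and RM-out in the table's title, unexplained, may mean a library was left out. The authors' deposited mean is a signal: counts scaled by size factors, averaged. The authors' deposited fold changes and SEs are on the log2 scale, and the deposited statistic, a score, is their ratio. The authors' deposited p-value comes from a two-sided Wald test, and 17279 genes have an adjusted p-value. Depth per library is unknown, and nothing says the 3 numbered libraries of a group came from separate cohorts, so p-values measure the spread between these libraries.

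The Ensembl identifiers of 18726 genes had a symbol in GENCODE M21 (GRCm38). The members and lists were chosen with earlier results of these data known. By the naming rule the text gives members past the threshold, the 2 highest and 2 lowest of each family, every U2af, Rbfox, Nova and Celf gene, and in each related splicing list the called genes or the 2 with the smallest p. The remaining members are named to account for them, except 1 that is counted in the groups but not reported here by itself. Intervals are 95% Wald intervals. Segments were predicted from the longest coding sequence, as 19 residues averaging at least 1.9 in Kyte-Doolittle hydropathy, or 12 residues averaging at least 2.2 among the first 40. Proteins with a segment in the last 50 residues alone and mitochondrial families were set aside. Coding length leaves out the stop codon, and levels per kb use the union of annotated exons. Copies were found with blastn 2.17.0. Thresholds, adjustments, centring, minimum means, weighting, copies and shared exons were varied. The adjustment, centring, calls and intervals were tested on simulated data in which rises and falls were equally likely, unlike the calls of this table. The other steps were not tested in this way. Python 3.11.15 with pandas 2.3.3, numpy 2.4.6, scipy 1.17.1, matplotlib 3.10.9 and Biopython 1.88 was used.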

Additional observations from a re-analysis of the deposited data

How the results depend on the processing

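The count of called members and of called core genes, 1 each in the main setting, was 0 at adjusted p under 0.01, 2 at adjusted p under 0.1 (Snrpf and Snrpd2), and 9 members and 7 core genes at an unadjusted p under 0.05. Both counts were 0 when the median of coding genes with no predicted segment (-0.06) was subtracted, which left Snrpf at an adjusted p of 0.0523, and 0 when members sharing at least 25% of their exon bases with another gene were left out, an alternative chosen after seeing the data that removes Snrpf by construction. The count of called regulators, 0 in the main setting, was 2 at an unadjusted p under 0.05. The other alternatives (adjustment over genes with a mean of at least 100 or over every gene with a p, a minimum mean, centring on all tested genes, a minimum fold of 0.3 on the log2 scale, members with copies left out) left all 3 counts as they were, with the adjusted p of Snrpf between 0.018 and 0.0268. The median log2 fold changes of members, core genes and regulators stayed negative under weighting, the minimum mean and both centrings, the smallest being -0.06, -0.09 and -0.05. The SR protein genes were the family whose median changed sign with a centring, 0.02 against -0.05 in the main setting. Leaving out a library was not run, since values per library were not analysed here. No paired analysis was possible because the table holds no values per library.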
